A study of Mus musculus with 7 samples.

Results

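Macrophage and myeloid genes were examined in carotid artery RNA from mice born of reciprocal crosses between ApoE-/- and wt parents. The set held 38 genes out of 18193 that had a probe set with 1 gene symbol on the Affymetrix Mouse 430 2.0 array, and each was read from its probe set with the highest mean signal. All 7 samples carried 1 null and 1 wild-type allele of Apoe. In 3 samples (wild-type mother 1 to 3) a normocholesterolemic wt mother had been mated with an ApoE-/- father, and in 4 samples (ApoE-null mother 1 to 4) a hypercholesterolemic ApoE-/- mother had been mated with a wt father. The labels give no age, sex, strain, litter or diet, do not say whether animals were pooled or which arrays stem from different animals, so p-values measure only the spread between these samples. Both parents differ between the groups, so a difference cannot be assigned to the mother rather than the father.

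Macrophages live in the outer layer of the healthy arterial wall and in the fat around it, and in atherosclerosis they take up lipoproteins in the inner layer and become foam cells. They depend on signals through the receptor Csf1r and on the transcription factor PU.1, which is encoded by Spi1. Artery-resident macrophages are known for the surface receptors Lyve1, Mrc1, Cd163 and Folr2, and many genes often listed with macrophages, such as Ptprc and Coro1a, are also used by lymphocytes. In whole-tissue RNA, fewer cells of a type and less RNA per cell cannot be told apart.

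The labelled tissue held the macrophage markers: 37 of the 38 genes exceeded the background level on all 7 arrays. Background was read on each array as the highest of 27 control probe sets for bacterial transcripts, and lay at a signal of 10 to 22. The exception was Trem2, at 3 of 7 arrays. Median signals were 36.0 to 42.1 per array. Apoe was detected throughout, at 3034.4 to 3897.4 in the wild-type mother group, against 2553.8 to 3105.2 in the ApoE-null mother group (limma, adjusted p = 0.601). The array of wild-type mother 2 stood apart, with a Xist signal of 41.2 against 5174.1 or more on the other arrays and a score of 3.38 for skeletal muscle markers against values from -1 to -0.15. Of these markers, Myh4 (346.7 against 0.4 to 11.2) and Tnnc2 (525.8 against 7.9 to 23.4) passed the filter on low signals only through wild-type mother 2. The muscle score was thus in part fixed by the filter. That array also had the highest background level, at 22, and the fewest probe sets above background, at 61.9% against 64.0% to 74.7%. Its ratio of 3 prime to 5 prime Gapdh signal was the highest, at 7.80 against 5.03 to 6.56. What leaving this array out changed is given after the main comparison and beside single genes.

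Of the 37 tested macrophage genes, 31 had a log2 fold change under 0.3 in size between the crosses. The intervals of only 11 stayed within a 1.5-fold difference, as given below. None of the 37 genes that passed the filter on low signals was called in limma at an adjusted p under 0.05 (adjusted p = 0.488 to 0.989), where 0.00370% of all probe sets were called. At an unadjusted p under 0.05, Clec4n and Ptprc were higher with an ApoE-null mother and 0 genes were lower, against 4.43% of all genes higher and 4.22% lower. The 2 genes are 5.41% of the 37. The median log2 fold change was 0.13, with 28 genes above and 9 below 0, against a median of -0.01 and 48.8% above 0 among the 12707 genes tested. This tilt rested on the array of wild-type mother 3, since without it the median was -0.03 and 17 of 37 genes were above 0. Without wild-type mother 2 the median was 0.15, 25 genes were above 0 and 0 were called. Log2 fold changes then changed sign for Cd68 (0.13 to -0.03), Cd163 (0.06 to -0.04), Fcgr1 (0.18 to -0.30), Lyz2 (0.03 to -0.06) and Cd86 (-0.21 to 0.16), none of them past the test with or without it.

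The precision differed between the genes. Intervals at the 95% level stayed within 1 log2 unit of 0, a doubling or halving, for 32 of 37 genes, and within 0.58, a 1.5-fold difference, for 11. Those 11 were Adgre1, Csf1r, Cd163, Pf4, Lyve1, Fcgr3, Fcer1g, Tyrobp, Clec7a, Lyz2 and Ctss. The intervals of Clec4n, Ptprc, Msr1, Cd52 and Fcgr1 reached a doubling in the ApoE-null mother group, and 0 intervals reached a halving. The typical half-width was 0.47 in these genes and 0.43 over all genes tested.

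**Figure D1:**
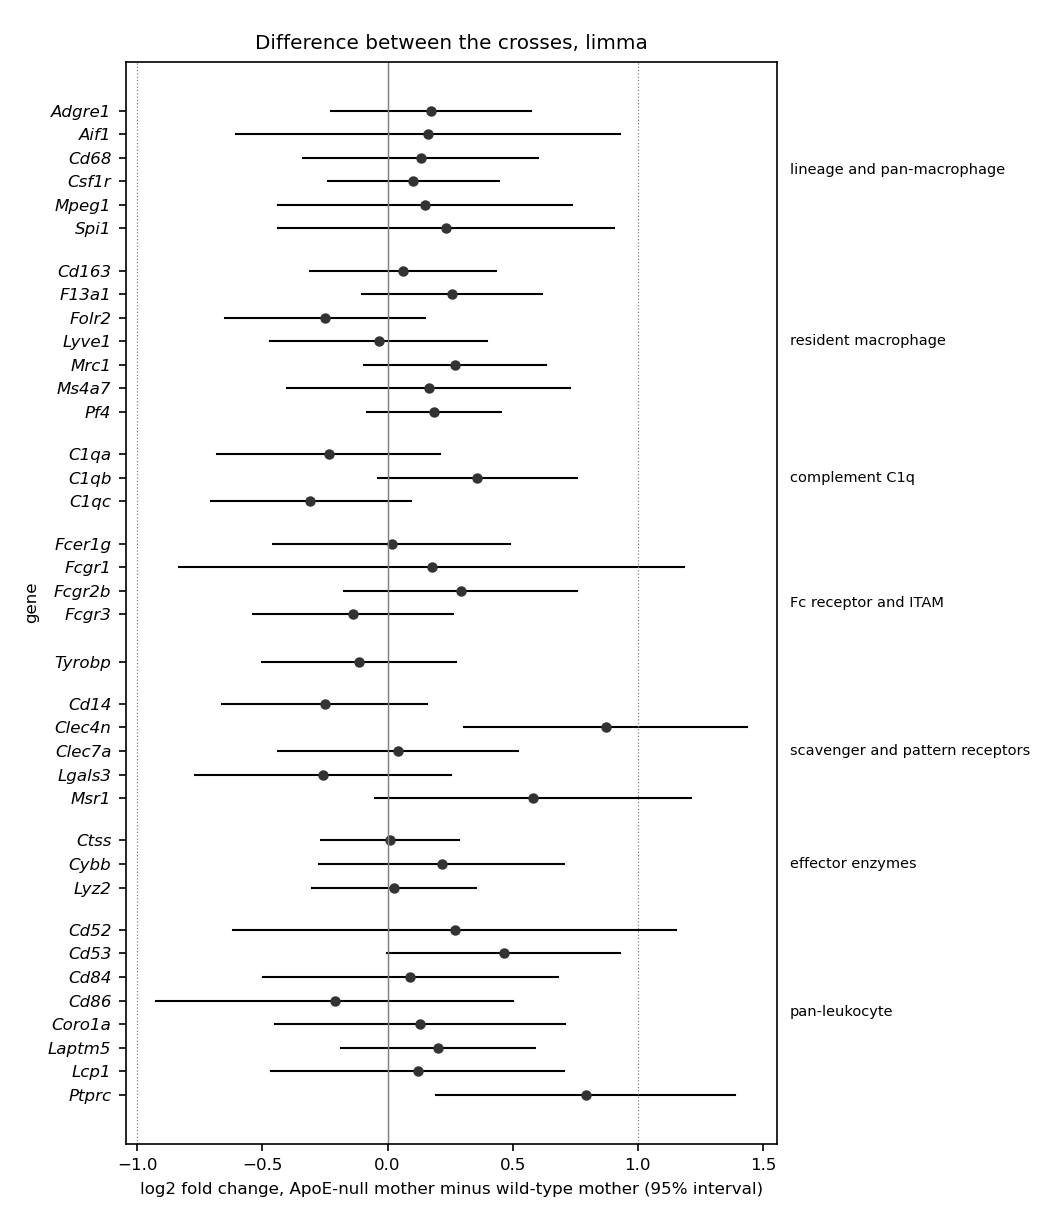
Log2 fold change of each of the 37 tested genes (points), ApoE-null mother minus wild-type mother on the log2(signal + 2) scale, with 95% intervals from limma (lines), grouped by role; dotted lines mark a doubling and a halving. The intervals of Clec4n (0.30 to 1.44) and Ptprc (0.19 to 1.39) leave out 0, and the other 35 include it.

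The genes of macrophage identity overlapped between the groups. Csf1r, the receptor for the growth factors that keep macrophages alive, had signals of 2344.2, 2298.9 and 2688.0 in the wild-type mother group, against 2776.6, 2653.7, 2026.1 and 3145.3 in the ApoE-null mother group. The lowest and the highest value were both in the ApoE-null mother group. Adgre1, which encodes the F4/80 antigen, had signals of 244.7, 168.9 and 184.7 against 212.6, 192.6, 259.6 and 230.5, also overlapping. Their log2 fold changes were 0.10 ± 0.16 and 0.17 ± 0.18 (± SE; limma, adjusted p = 0.882 and 0.819).

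Cd68, a lysosomal membrane glycoprotein, had a mean of 158 ± 34.6 (SD, n = 3) against 174 ± 36.1 (SD, n = 4). Mpeg1, a pore-forming protein, and Aif1, the actin-binding protein Iba1, had log2 fold changes of 0.15 and 0.16. Spi1 had signals between 27.3 and 56.3, with a log2 fold change of 0.23 and an interval of -0.44 to 0.90. All 6 identity genes were thus above 0, with a median of 0.16, and 0 of them passed at an unadjusted p under 0.05. Without wild-type mother 3 the count above 0 was 4 and the median 0.14.

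Promoters of 27 of the 38 genes were in the RefSeq table (GRCm38.p6), as 250 bases before and 50 after each start. The letters GAGGAAGT, a core of the sites that PU.1 binds, were searched on both strands because Spi1 is a member, with no other motif searched. They occurred in 5 of the 27 (18.5%), namely Ctss, Cd53, C1qc, Pf4 and F13a1, against 3.69% of the 27025 genes in the table. In Ctss the match ran across the start, and in Cd53 and F13a1 it lay after the start. Those stretches are not printed. The other matches lie before the start and are shown because C1qc and Pf4 had log2 fold changes of opposite sign, as given below. Both read ACTTCCTC, the reverse complement, in capitals. The C1qc window is at chr4:136893076-136893135 on the minus strand and the Pf4 window at chr5:90772399-90772434 on the plus strand.
C1qc: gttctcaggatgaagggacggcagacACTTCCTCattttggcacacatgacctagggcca
Pf4: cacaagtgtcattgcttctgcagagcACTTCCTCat
Between the match and the start lie 187 bases in C1qc and 2 bases in Pf4. Of the 5 genes, 0 were called, and their log2 fold changes were 0.01 for Ctss, 0.46 for Cd53, -0.31 for C1qc, 0.19 for Pf4 and 0.26 for F13a1.

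Genes of resident macrophages were measured with some of the narrowest intervals. Pf4, the chemokine platelet factor 4, which platelets and tissue macrophages both make, had signals of 1686.2, 1950.8 and 1602.7 in the wild-type mother group, against 1995.0, 2055.6, 1889.8 and 1987.0 in the ApoE-null mother group. All but 1 of the ApoE-null mother arrays lay above the highest wild-type mother array, and the log2 fold change was 0.19 (limma, adjusted p = 0.710; interval -0.08 to 0.45). Without wild-type mother 2 it was 0.27, with no overlap between groups, as for 9.87% of all genes in that direction. Lyve1, a hyaluronan receptor of these cells and of lymphatic endothelium, had signals of 1344.5, 773.4 and 855.0 against 853.8, 829.0, 1128.3 and 970.3. The array of wild-type mother 1 was highest, and Lyve1 went from -0.04 to 0.21 without it on the log2 scale. Of the lymphatic endothelial markers, Reln, Flt4 and Pdpn exceeded background on all 7 arrays and Prox1, the defining transcription factor, on 1. The score of the 3 tested markers (Reln, Flt4 and Pdpn) was 0.63 on wild-type mother 1 and -0.47 to 0.11 on the other arrays, and its part in the Lyve1 values was not tested.

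Folr2, a folate receptor, had signals of 370.0, 326.4 and 320.4 in the wild-type mother group, against 250.2, 264.5, 254.8 and 386.5 in the ApoE-null mother group. ApoE-null mother 1, 2 and 3 lay below all arrays of the other group, and ApoE-null mother 4 above all of them. The log2 fold change was -0.25 (limma, adjusted p = 0.738), and -0.40 without ApoE-null mother 4. Mrc1, the mannose receptor, and F13a1, the catalytic chain of coagulation factor XIII, were at 0.27 and 0.26. Cd163, which clears haemoglobin, was at 0.06, and Ms4a7, a membrane protein of macrophages, at 0.17. Over the 7 resident genes, 5 were above 0 and the median was 0.17, with 0 passing at an unadjusted p under 0.05.

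**Figure D2:**
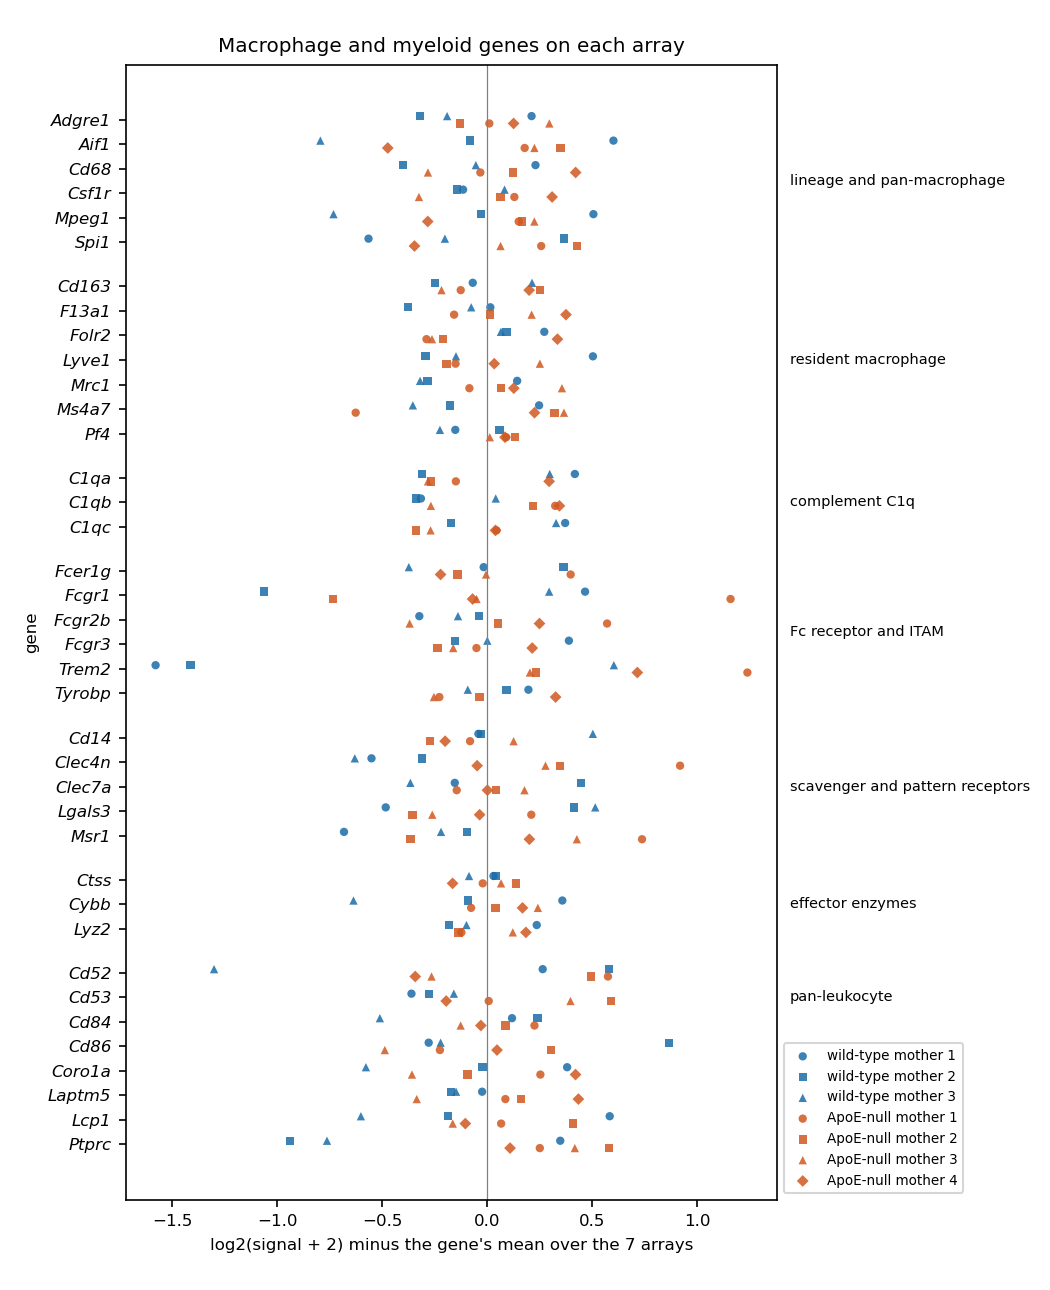
Log2(signal + 2) of each of the 38 genes on each array, minus that gene's mean over the 7 arrays, with wild-type mother arrays in blue and ApoE-null mother arrays in orange. Groups overlap for 37 of the 38 genes, and the exception is Clec4n; wild-type mother 3 is lowest for 12 of the 37 tested genes.

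The 3 chains of complement C1q differed in sign, and none of them passed the test. C1qa, C1qb and C1qc encode the chains of the molecule that starts the classical complement pathway, and macrophages are its main source. C1qa had signals of 1368.7, 826.5 and 1259.6 in the wild-type mother group, against 923.6, 850.7, 842.3 and 1257.1 in the ApoE-null mother group. C1qc had signals of 506.6, 347.3 and 491.6 against 403.5, 308.7, 324.2 and 402.1. Wild-type mother 1 and 3 were the highest arrays for both chains. Wild-type mother 2 was the lowest array for C1qa and lay within the range of the other group for C1qc. Their log2 fold changes were -0.24 and -0.31 (limma, adjusted p = 0.773 and 0.677). Without wild-type mother 2, neither chain overlapped between groups, both were lower at an unadjusted p under 0.05, and the log2 fold changes were -0.46 and -0.48 (limma, adjusted p = 0.488 and 0.465). With that array left out, 9.87% of all genes were higher without overlap, against 4.34% with all arrays. At an unadjusted p under 0.05 in limma, 5.25% of all genes were then higher. The shares lower were not counted with that array left out.

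C1qb, read from its strongest probe set, went the other way. Its signals were 539.4, 530.5 and 691.0 against 841.2, 781.3, 557.5 and 853.0, a log2 fold change of 0.36 (limma, adjusted p = 0.635; interval -0.04 to 0.76). That probe set ends in _x_at, the suffix that Affymetrix gives to sets with probes open to cross-hybridisation. A weaker probe set of the same kind was at 0.27. The set without that suffix had signals of 683.3, 370.7 and 537.6 in the wild-type mother group, against 364.4, 309.2, 350.1 and 477.1 in the ApoE-null mother group. In it, as in C1qa and C1qc, wild-type mother 1 and 3 were the highest arrays, and the log2 fold change was -0.47 (limma, adjusted p = 0.610; interval -0.95 to 0.01). This set was singled out after its values were seen. Which of the 3 sets reads C1qb alone was not tested.

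**Figure D3:**
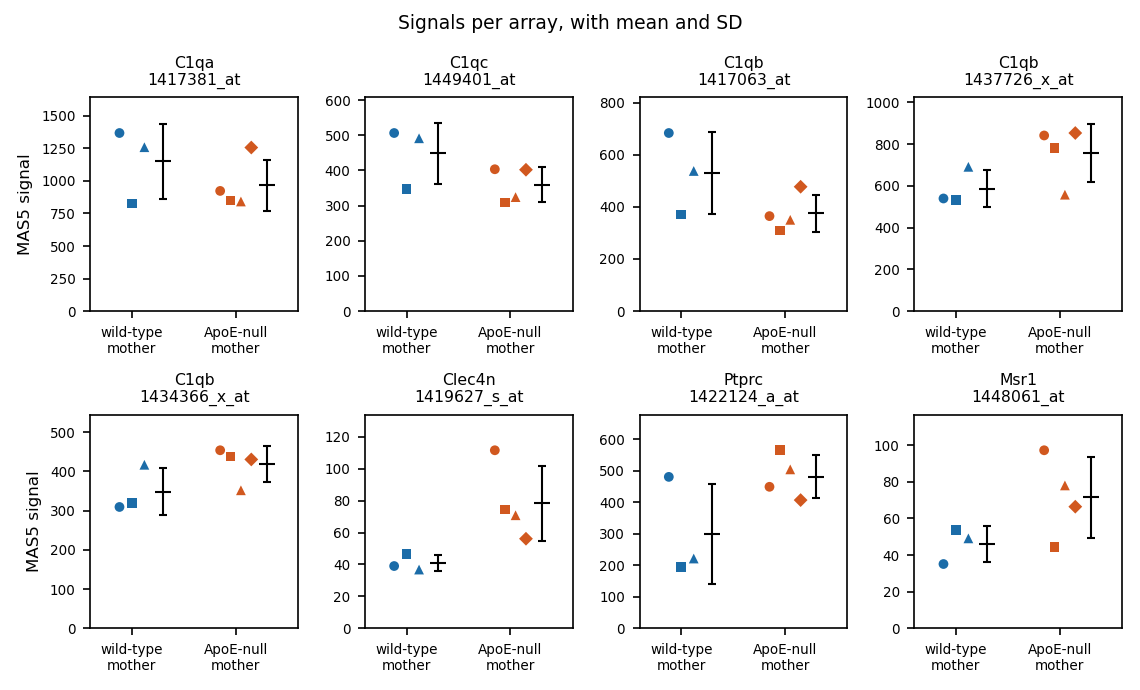
MAS5 signal per array for single probe sets of C1qa, C1qc, C1qb (3 probe sets), Clec4n, Ptprc and Msr1, on linear axes from 0, with wild-type mother arrays in blue and ApoE-null mother arrays in orange; circles, squares, triangles and the diamond stand for arrays 1, 2, 3 and 4 of a group, and black bars for mean and SD. The 2 C1qb sets ending in _x_at are higher on average with an ApoE-null mother and the third is lower, and Clec4n does not overlap, at 36.8 to 46.4 against 56.1 to 111.5.

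Probe sets of 1 gene disagreed elsewhere too. Of 67 probe sets for the 38 genes, 54 passed the filter, and 11 genes had more than 1 of them. All sets of a gene had the same sign for Cd84, Coro1a, Cybb, Laptm5 and Lyve1. The signs were mixed for C1qb, Cd86, Csf1r, Fcgr1, Fcgr2b and Lcp1. The widest range was that of Laptm5, with 4 sets at 0.04 to 1.32.

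Fc receptors bind antibody-coated particles. The activating ones signal through the adaptor chain Fcer1g, Trem2 signals through the adaptor Tyrobp, and the inhibitory Fcgr2b has an inhibitory motif of its own. Tyrobp had signals of 382.5, 355.6 and 312.8 in the wild-type mother group, against 284.6, 325.1, 279.5 and 418.6 in the ApoE-null mother group. Fcgr2b had signals of 217.1, 265.0 and 246.9 against 405.1, 282.2, 210.2 and 323.7. For both genes the ApoE-null mother group held the lowest and the highest array. Their log2 fold changes were -0.11 ± 0.18 and 0.29 ± 0.21 (± SE; limma, adjusted p = 0.886 and 0.738).

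The activating receptor Fcgr3 was at -0.14, with a mean of 293 ± 58.8 (SD, n = 3) against 264 ± 37.8 (SD, n = 4). Fcer1g differed by 0.02, at 193 ± 49.7 (SD, n = 3) against 194 ± 39.7 (SD, n = 4). Fcgr1, the high-affinity receptor, spread widest, from 24.4 on wild-type mother 2 to 121.0 on ApoE-null mother 1, and its interval of -0.83 to 1.19 was the widest of the 37. Trem2, a lipid-sensing receptor of foam cells, was under the filter and not tested. It had signals of 2.1, 2.6 and 16.6 in the wild-type mother group, against 26.9, 12.4, 12.1 and 18.1 in the ApoE-null mother group, and exceeded background only on wild-type mother 3, ApoE-null mother 1 and ApoE-null mother 4. Of the 5 tested genes of this group, 3 were above 0 and the median was 0.02.

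Among pattern recognition receptors, Clec4n had the largest log2 fold change of the 37 genes. It encodes dectin-2, a lectin receptor for fungal mannans that signals through Fcer1g. Its signals were 39.0, 46.4 and 36.8 in the wild-type mother group, against 111.5, 74.4, 70.8 and 56.1 in the ApoE-null mother group. Every ApoE-null mother array lay above every wild-type mother array. Clec4n was the 1 gene of 37 (2.70%) without overlap in that direction, and 0 genes lay without overlap in the other, where 4.34% and 4.23% of all genes did. The mean was 40.7 ± 5.03 (SD, n = 3) against 78.2 ± 23.6 (SD, n = 4), a 1.83-fold difference on the log2(signal + 2) scale, or 0.87 with an interval of 0.30 to 1.44. It was not called (limma, adjusted p = 0.488), and ranged over 0.69 to 1.012 when single arrays were left out. The probe set ends in _s_at, the suffix for probes shared between transcripts. The second set was under the filter, at 1.4 to 23, and the mean over both sets had a log2 fold change of 0.53 with overlapping groups.

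The neighbours of Clec4n in the lectin cluster on chromosome 6 were measured in part. The RefSeq table places Clec4a2, Clec4b2, Clec4n, Clec4d and Clec4e in this order. Clec4a2, an inhibitory receptor of myeloid cells, had signals of 117.8, 127.0 and 82.3 in the wild-type mother group, against 220.5, 154.4, 174.1 and 161.5 in the ApoE-null mother group. Its groups did not overlap either, with a log2 fold change of 0.70 (limma, adjusted p = 0.487). Clec4d overlapped between groups, at 17.5 to 30.6 against 16.6 to 42.7, and Clec4e exceeded background on 1 of 7 arrays. Clec7a, which encodes dectin-1, a receptor for fungal glucans, was at 0.04, with 78.5 to 139.4 against 91.8 to 115.3. Its highest array was wild-type mother 2, and without it Clec7a was at 0.28 with no overlap between groups (limma, adjusted p = 0.679). Without that array 9.87% of all genes were higher with no overlap.

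Msr1, the class A scavenger receptor that takes up modified lipoproteins, had signals of 35.1, 53.7 and 49.1 in the wild-type mother group, against 97.2, 44.2, 78.0 and 66.4 in the ApoE-null mother group. Only ApoE-null mother 2 lay within the range of the other group. The log2 fold change was 0.58 (limma, adjusted p = 0.630; interval -0.05 to 1.21). Cd14, the co-receptor for bacterial lipopolysaccharide, had signals of 211.6, 213.5 and 309.6 against 205.8, 179.9, 237.9 and 189.4, and was at -0.25. Lgals3, the lectin galectin-3, had signals of 961.7, 1793.2 and 1921.9 against 1555.9, 1050.5, 1121.7 and 1311.7. Wild-type mother 1 was the lowest array and the other arrays of its group the highest, and the log2 fold change was -0.26 (limma, adjusted p = 0.786). Without wild-type mother 1 it was -0.57. This group of 5 had 3 genes above 0 and a median of 0.04.

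Of the effector enzymes, Ctss and Lyz2 were nearly level. Ctss, the protease cathepsin S, had signals of 1611.6, 1625.5 and 1486.4 in the wild-type mother group, against 1555.3, 1735.5, 1652.3 and 1407.8 in the ApoE-null mother group. Lyz2, lysozyme, had signals of 1606.7, 1203.1 and 1273.7 against 1252.6, 1240.3, 1484.6 and 1550.3. For each of them the range of one group enclosed that of the other, and the log2 fold changes were 0.01 (interval -0.27 to 0.29) and 0.03 (interval -0.30 to 0.35; limma, adjusted p = 0.989 and 0.971). Cybb, the catalytic subunit of the phagocyte NADPH oxidase, was at 0.22, with 123.5 to 248 against 183 to 228.6. It was at -0.04 without wild-type mother 3, its lowest array, and at 0.46 with no overlap without wild-type mother 1, its highest (limma, adjusted p = 0.539). With wild-type mother 1 left out, 9.2% of all genes were higher with no overlap.

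The last group holds 8 genes of leukocytes in general or of several leukocyte types, of which 7 were above 0, with a median of 0.17. Ptprc, the phosphatase CD45, had signals of 480.8, 195.8 and 221.6 in the wild-type mother group, against 449.3, 565.3, 504.6 and 407.1 in the ApoE-null mother group. Wild-type mother 1 lay among the ApoE-null mother arrays, and the other arrays of its group lay below all of them. The mean was 299 ± 158 (SD, n = 3) against 482 ± 68.6 (SD, n = 4), a log2 fold change of 0.79 (limma, adjusted p = 0.541; interval 0.19 to 1.39). It was 1.19 without wild-type mother 1 (limma, adjusted p = 0.0683) and 0.55 without wild-type mother 2.

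Cd53, a tetraspanin, had signals of 99.3, 105.4 and 114.5 against 128.7, 193.7, 169.2 and 111.6, with a log2 fold change of 0.46 (limma, adjusted p = 0.607). ApoE-null mother 4 alone lay within the range of the other group. Laptm5, a lysosomal protein of blood cells, had signals of 803.4, 725.4 and 737.0 against 867.6, 913.6, 647.1 and 1104.6, and was at 0.20 on a probe set that also ends in _x_at. The actin regulators Coro1a and Lcp1 were at 0.13 and 0.12, the surface protein Cd52 at 0.27, the adhesion receptor Cd84 at 0.09 and the co-stimulatory ligand Cd86 at -0.21. Without wild-type mother 3 only 3 of the 8 were above 0, with a median of -0.13.

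Scores of the T cell and thymocyte markers that passed the filter separated the groups. These cells also express Ptprc and several other genes of this group. The score of a list, the mean over its genes of the log2 signal minus that gene's average on all 7 arrays, was -0.78 to -0.23 in the wild-type mother group, against 0.10 to 0.70 in the ApoE-null mother group for 5 tested T cell markers of 10. For 7 tested thymocyte markers of 10 it was -1.43 to -0.41 against 0.49 to 1.15. Cd3d, Cd3g, Cd5, Ccr9, Dntt, Rag1 and Arpp21 passed the filter of 23.6 only through the ApoE-null mother group. Their means were 9 to 19.9 in the wild-type mother group, against 31.6 to 148 in the ApoE-null mother group. The separation of these scores was thus in part fixed by the filter. Within the wild-type mother group, the array with the highest Ptprc, wild-type mother 1, had the highest thymocyte score. The array with the lowest Ptprc, wild-type mother 2, had the highest T cell score. Rag2 and Cd4 of the thymocyte list were at background on every array, Cd3e was above it on 1, and 4 of 5 tested T cell and 6 of 7 tested thymocyte markers were above 0. None of these was called in limma, while 2 and 6 of them were higher at an unadjusted p under 0.05, where 4.43% of all genes were. Those counted include Cd3d, Cd3g, Ccr9, Dntt, Rag1 and Arpp21, so these counts too were in part fixed by the filter. They cannot be weighed against the share of all genes. The part of the T cell and thymocyte markers in the difference of Ptprc was not tested. For the 7 resident macrophage genes, the score ranged over -0.18 to 0.14 against -0.19 to 0.20.

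Scores of other blood cell markers overlapped between the groups. Both tested erythroid markers of 6, Alas2 at 1.24 and Slc4a1 at 0.72, were higher at an unadjusted p under 0.05, where 4.43% of all genes were. Their scores were -0.85 to -0.10 against -0.19 to 0.85, and none was called (limma, adjusted p = 0.481 and 0.538). Only 3 of 10 neutrophil markers passed the filter, with scores of -0.80 to 0.44 against -0.10 to 0.43, and Cxcr2 was at background throughout. The 5 tested dendritic cell markers of 8 had scores of -0.03 to 0.20 against -0.40 to 0.20, and Ccr7 was at background on every array. The 2 tested B cell markers of 6 had scores of -0.45 to -0.07 against -0.28 to 0.58, with Cd79a at background throughout. Ms4a1 of the B cell list and Flt3 of the dendritic cell list passed the filter only through the ApoE-null mother group. Their means were 19.4 against 30.25 and 20.33 against 30.18, so the scores of these lists depend in part on the filter. Mast cell markers, 5 tested of 7, had scores of -0.93 to 0.51 against -0.54 to 0.81.

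**Figure D4:**
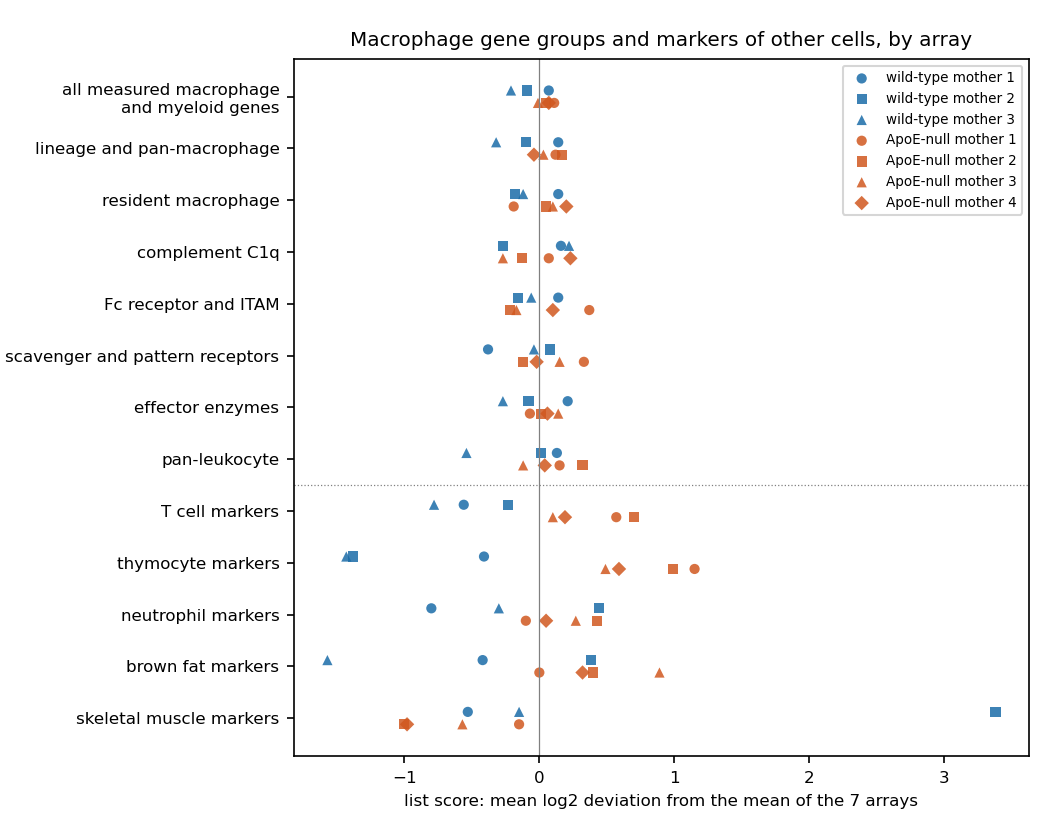
Score of the macrophage and myeloid genes, of their role groups (above the dotted line) and of markers of other cells (below it) on each array, in log2 units around each gene's average, with wild-type mother arrays in blue and ApoE-null mother arrays in orange. Scores of the 37 tested genes lie between -0.21 and 0.11, and wild-type mother 2 is at 3.38 for skeletal muscle markers, in part through the filter on low signals. T cell and thymocyte scores separate the groups, in part through the filter.

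The arrays with a wild-type mother differed among themselves in different genes. Wild-type mother 3 was the lowest of the 7 arrays for 12 of 37 genes, among them Cd52 (82.7), Lcp1 (91.8), Mpeg1 (83.0), Cybb (123.5) and Aif1 (24.5), and it was highest for Cd14 and Lgals3. Wild-type mother 2 was lowest for 10, including Cd68, Adgre1, C1qa, Lyve1 and F13a1. Wild-type mother 1 was highest for 9, including C1qa, C1qc, Lyve1, Lyz2 and Mpeg1. Scores over all 37 genes were 0.07, -0.09 and -0.21 for these arrays and 0.11, 0.05, -0.01 and 0.07 for the ApoE-null mother arrays. The groups overlap, with wild-type mother 1 inside the other group. Wild-type mother 3 also had the lowest score for 6 brown fat markers, at -1.57 where the other arrays were at -0.42 to 0.89, and that part was not tested. All 6 brown fat markers were above 0 (median 0.86), with overlapping scores of -1.57 to 0.38 against 0 to 0.89. All 4 tested nerve markers were below 0 (median -1.13), with overlapping scores of -0.17 to 1.45 against -1.58 to 0.53. None of these was called in limma.

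Other genes of the macrophage programme were read from 8 lists that hold 106 genes, of which 95 had a probe set and 80 passed the filter. None was called (limma, adjusted p = 0.418 to 0.992). At an unadjusted p under 0.05, 7 were higher (8.75%) and 1 was lower, where 4.43% and 4.22% of all genes were. The median log2 fold change was 0.09 and 52 (65%) were above 0, against 48.8% of all genes. The groups did not overlap for 6 higher and 2 lower genes, where 4.34% and 4.23% of all genes did not. Their scores were -0.16 to -0.02 in the wild-type mother group, against 0.04 to 0.08 in the ApoE-null mother group, a separation of less than 0.1 between the nearest arrays. Chil3, Flt3, Clec4d and Was passed the filter of 23.6 only through the ApoE-null mother group, and Il34 and Pirb only through the wild-type mother group. Chil3 is among the 7 higher genes and Flt3 among the 6 without overlap. The counts and the separation of these scores thus depend in part on the filter.

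Among transcription factors, 6 of 9 were above 0 and the median was 0.20. Cebpb, which drives inflammatory genes in myeloid cells and also acts in fat cells, had signals of 442.9, 425.5 and 450.2 in the wild-type mother group, against 602.6, 683.5, 816.1 and 660.0 in the ApoE-null mother group. Every ApoE-null mother array was higher, and the log2 fold change was 0.64 with an interval of 0.32 to 0.96 (limma, adjusted p = 0.418). Klf4, a factor of monocytes and also of vessel wall cells, had signals of 3896.1 to 4325.1 against 4514.9 to 4836.0, again without overlap, and a log2 fold change of 0.20 (interval -0.03 to 0.44). Irf8, a factor of monocyte development, was at 0.07.

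Among growth factors and their receptors, 6 of 7 were above 0 and the median was 0.27. The receptor chains Csf2ra and Csf2rb were at 0.75 and 0.33, and Csf2ra was under the background level on wild-type mother 2. Among 7 monocyte genes the median was 0.05, with 2 higher at an unadjusted p under 0.05, where 4.43% of all genes were. Chil3, a chitinase-like protein, had signals of 2.4, 37.5 and 5.3 against 49.9, 36.9, 69.8 and 26.3, and was under background on wild-type mother 1 and 3, so its fold change rests partly on background. Plac8 was at 0.46, with 299.8 to 426.0 against 417.5 to 671.4. Ccr2, the receptor by which monocytes leave the blood, was at 0.05, with 74.5 to 115.3 against 74.2 to 113.7.

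Genes of foam cells and lipid-loaded macrophages had a median of 0.04 over 13 tested, with 9 above 0. Cd36, a receptor for oxidised lipoprotein that fat cells and endothelium also use, was at 0.81. Abcg1 and Abca1, which export cholesterol, were at 0.30 and 0.28, and Abcg1 did not overlap, at 160.3 to 193.5 against 193.8 to 247.1. Gpnmb, a lysosomal glycoprotein of foam cells, was at 0.04, with a mean of 634 ± 203 (SD, n = 3) against 634 ± 39.7 (SD, n = 4). Mmp12, the macrophage elastase, was at background on every array.

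Of 12 tested genes of receptor signalling, 7 were above 0 and the median was 0.20. The kinase Syk, which acts downstream of the adaptors Fcer1g and Tyrobp, was lower in every ApoE-null mother array, at 68.7 to 94.9 against 96.9 to 114.9, with a log2 fold change of -0.32 (limma, adjusted p = 0.683). Oxidase and cytoskeleton genes had a median of 0.10 over 10 tested. Plek, a substrate of protein kinase C in leukocytes and platelets, was at 0.69, with 77.3 to 146.2 against 151.7 to 267.5 and no overlap. Ncf4, a cytosolic subunit of the oxidase, was at -0.45.

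Pattern recognition genes outside the main set had a median of 0.11 over 8 tested. Ly86, which encodes MD-1, a partner of the receptor RP105, had signals of 323.2, 316.0 and 244.2 against 233.0, 223.6, 165.6 and 206.1. Every ApoE-null mother array was lower, and the log2 fold change was -0.50 with an interval of -0.90 to -0.11 (limma, adjusted p = 0.551). Tlr4 was at 0.18 and Tlr8 at background throughout. Among 14 further resident macrophage genes, 7 were above and 7 below 0, with a median of 0.01. Igf1, a growth factor, was at -0.38 and the receptor kinase Axl, which binds dying cells, at 0.30. Marco, a scavenger receptor of other tissue macrophages, was at background on every array.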

How the data were processed

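Each deposited value is a linear intensity, the signal of 1 probe set on 1 array. Per the submitters' processing notes, MAS5 and GCOS were used, with no version. The 2% trimmed mean of every array was 200, and this scaling was left as it was. Per the labels' protocols, RNA from frozen tissue was amplified in 2 cycles with an oligo-dT primer, and such labelling reads the 3 prime ends. No detection calls were used. Precision is limited by the number of arrays.

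Of 45101 probe sets, 34958 had 1 symbol in the platform annotation, 932 several and 9211 none. Symbols of 34741 matched a GRCm38.p6 gene table by gene identifier and 0 changed. Signals were analysed as log2(signal + 2). The 64 control probe sets were left out, and so were those whose mean over 7 arrays lay at or under the 40th percentile (23.6), leaving 27013 probe sets and 12707 genes. Differences are ApoE-null mother minus wild-type mother from limma 3.58.1 in R 4.3.3 (lmFit, then eBayes with trend), without covariates. Adjusted p-values are by Benjamini-Hochberg over the 27013 probe sets. Changes of weak genes are understated on this scale. The fit was also run on simulated data with noise drawn independently for each probe set. Such data lack shifts shared by the genes of an array, and no result here rests on them.

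Members, lists and tests were chosen with earlier results of these data known. Signals per array are given for genes without overlap between groups, the 2 strongest of each role group and the 5 with the smallest p in each direction; other lists give up to 2 genes with the smallest p, besides a few chosen after their values were seen (Clec4d, Clec4e, Irf8, Ccr2, Abca1, Gpnmb and genes at background). Of 215 genes in lists other than the role groups, 192 had a probe set with 1 symbol. Alternatives were another pseudocount, filters, quantile normalization, no trend, array weights, the mean over a gene's probe sets and leaving out each array.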

Additional observations from a re-analysis of the deposited data

Results flagged for a closer look

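Among 46 sets of values in the 4 arrays with an ApoE-null mother (38 genes, 7 role group scores and the score over all genes), 3 had an array whose gap to its nearest neighbour exceeded the critical share of the group's range in Dixon's test at the 95% level, where chance flags about 1 in 20. Folr2 was at 386.5 on ApoE-null mother 4. Ms4a7 was at 100.1 on ApoE-null mother 1. Mpeg1 was at 114 on ApoE-null mother 4.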

How the results depend on the processing

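No macrophage or myeloid gene of the 38 was called in limma under the 7 other settings or with any 1 array left out, and the smallest adjusted p was 0.0683, for Ptprc without wild-type mother 1. The count higher at an unadjusted p under 0.05 was 2, and 1 both with the filter at the 60th percentile and with the mean over the probe sets of a gene, in both cases Ptprc; it was 3 after quantile normalization and with array weights, with Cd53 added in both, and 2 to 4 with single arrays left out. With no filter it was also 3, with Trem2 added. Of all genes, 4.43% were higher at that p in the main analysis and 3.9% to 5.75% under the other settings. With single arrays left out, the share was 2.82% to 5.38%. The count lower was 0, 1 with array weights (C1qc) and 0 to 2 with single arrays left out. Genes without overlap and higher numbered 1 in the main analysis, 3 after quantile normalization and 0 with the filter at the 60th percentile or with the mean over probe sets. With single arrays left out they numbered 1 to 6, the highest without wild-type mother 1. Of all genes, 4.34% were higher without overlap in the main analysis and 4.81% after quantile normalization. That share was 5.66% to 9.87% with single arrays left out, and 9.2% without wild-type mother 1. Members lower without overlap numbered 0, and 0 to 2 with single arrays left out. The shares of all genes lower were counted only in the main analysis. The median log2 fold change was -0.032 to 0.214 with single arrays left out, below 0 without wild-type mother 3. Of 131 values for the 19 genes given per array, 130 kept their sign under the other settings, and Lyz2 was at -0.002 with array weights. Lyz2, Ctss and Lyve1 changed sign with single arrays left out, at -0.057 to 0.151, -0.035 to 0.065 and -0.192 to 0.206. The cause of these changes was not tested. No paired analysis was possible because the labels give no number that ties an array of one cross to an array of the other.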
